A study of Homo sapiens with 14 samples.

Results

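The genes described here encode the Sm proteins of the spliceosome and 3 partners, 1 of them an Sm-like protein: SNRPB, SNRPD1, SNRPD2, SNRPD3, SNRPE, SNRPF, SNRPG, LSM4, GEMIN5 and COIL. They were chosen by name, with earlier results of these data known, and all 10 are among the 58780 genes of the deposited count table. All 10 also passed the filter on low counts, which kept 21910 genes for testing. Nascent transcription was measured by PRO-seq, a run-on assay in which engaged RNA polymerases extend their transcripts with labelled nucleotides before the RNA is sequenced. All samples were of A549, an established line from a human lung adenocarcinoma that carries mutant KEAP1, and the 14 libraries form 7 groups of 2. Untreated cells carry the label 15 min and received 0.01% DMSO. Other groups received GSK591, an inhibitor of PRMT5, at 1 µM for 15 min or for 3 h, or MS023, an inhibitor of the type I arginine methyltransferases, at 1 µM for 15 min or for 3 h. The last groups received either inhibitor together with Dex (dexamethasone, a synthetic glucocorticoid, 100 nM) for 15 min. All groups share the cell line and the vehicle. Untreated cells held for 3 h and cells given Dex without an inhibitor are not analysed here, so at 3 h the inhibitor and the time in culture cannot be told apart. The labels do not say that the libraries of a group came from separate cultures, and the p-values then measure only the spread between these libraries, which may be technical.

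Sm proteins B, D1, D2, D3, E, F and G close into a ring around a uridine-rich site of the spliceosomal small nuclear RNAs (snRNAs), and this ring is the core of the small nuclear ribonucleoproteins (snRNPs) that splice pre-mRNA. SmB, SmD1 and SmD3 carry arginine-glycine tails that PRMT5 dimethylates symmetrically, as does the Sm-like protein LSm4, and the SMN complex binds these tails when it loads the ring onto snRNA in the cytoplasm. GEMIN5 is the subunit of the SMN complex that recognises the snRNA, and coilin, the product of COIL, is the scaffold of the nuclear Cajal bodies through which new snRNPs pass. The title of the series names the methylation of SNRPB by PRMT5. PRO-seq reads the transcription of these genes, not the methylation or the amount of their proteins.

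Promoter windows from RefSeq (GRCh38.p14; 250 bases before to 50 after a start site) were at hand for 9 of the 10 genes, 14 windows in all, and SNRPD1 is the gene with no window. In 7 genes (SNRPB, SNRPD2, SNRPD3, SNRPF, LSM4, GEMIN5 and COIL) a window belonged to the start at the 5′ end of the RefSeq gene. Windows of SNRPE and SNRPG belonged to starts 248 to 516 bases inside the gene. The sequences that follow, 5′ to 3′, are the 250 bases before that 5′ end for SNRPB, the gene the series is named for, for SNRPD2, the other gene with an ETS core match there, and for LSM4, which rose at 3 h of GSK591. Capitals mark a match to the ETS core CCGGAAG, read on both strands. SNRPB lies at chr20:2470790-2471039 (minus strand), SNRPD2 at chr19:45692317-45692566 (minus strand) and LSM4 at chr19:18323077-18323326 (minus strand).
SNRPB: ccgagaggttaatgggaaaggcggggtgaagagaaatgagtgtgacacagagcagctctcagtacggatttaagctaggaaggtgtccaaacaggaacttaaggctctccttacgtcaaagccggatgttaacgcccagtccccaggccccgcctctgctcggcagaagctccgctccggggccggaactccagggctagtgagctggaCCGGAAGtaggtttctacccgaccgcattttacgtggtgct
SNRPD2: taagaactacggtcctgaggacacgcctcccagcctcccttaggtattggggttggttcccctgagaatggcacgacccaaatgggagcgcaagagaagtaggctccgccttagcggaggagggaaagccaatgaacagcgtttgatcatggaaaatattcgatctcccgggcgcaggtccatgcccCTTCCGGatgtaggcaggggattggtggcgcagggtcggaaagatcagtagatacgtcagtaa
LSM4: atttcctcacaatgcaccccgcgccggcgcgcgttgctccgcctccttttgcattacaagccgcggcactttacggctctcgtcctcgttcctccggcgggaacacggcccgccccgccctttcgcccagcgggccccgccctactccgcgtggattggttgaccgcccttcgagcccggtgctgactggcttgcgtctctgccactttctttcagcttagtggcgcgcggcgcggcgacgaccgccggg
The matches begin 41 bases before the start in SNRPB and 63 bases before it in SNRPD2, and the LSM4 stretch holds none. Over the whole windows, ETS core matches were present in 4 of the 9 genes (SNRPB, SNRPD2, SNRPE and SNRPG), against 12.2% of 27305 genes. They were present in 6 of the 14 windows, against 10.3% of 35116 windows. Those of SNRPE and SNRPG lie in windows of starts inside the gene. Of the 7 genes with a window at the 5′ end, 2 held a match there (SNRPB and SNRPD2). The share of all genes at such starts was not computed. The CCAAT box (letters CCAAT, both strands) was present in 3 of the 9 genes (SNRPD2, SNRPF and LSM4), against 39.7% of all genes. No window of these genes held the glucocorticoid receptor element (a palindrome of hexamers with a spacer), the E-box CACGTG or the TATA box letters TATAAA on either strand, against 0.00366%, 8.77% and 14% of all genes. A match is a string of letters, not a measured binding site.

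Total counts per library ranged from 5768312 to 9606938, of which mitochondrial transcripts took 39.8% to 58.0%. Together the 10 genes had 1194 to 1703 counts per library. Levels are given as CPM (a count divided by the library size and brought to a common total) on TMM-scaled library sizes, a scaling that sets the bulk of genes equal between libraries. Replicate libraries correlated at Pearson's r of 0.976 to 0.988 across genes, which are not independent replicates. The libraries given GSK591 with Dex differed most from each other, with 48.2% and 58.0% mitochondrial counts and a chi-square per degree of freedom of 15.4, against 2.15 in the untreated pair. The epithelial marker KRT8 stood at 259 to 353 CPM and AKR1B10 at 158 to 310 CPM, while EPCAM was low at 1.30 to 4.09 CPM. Among markers of other cell types, CD3E was at 0 in every library and PTPRC reached at most 0.14 CPM, COL1A2 0.22 CPM and PECAM1 0.55 CPM. Others of the same lists were present, COL1A1 at 4.83 to 7.88 CPM, CD14 at 2.36 to 3.88 CPM and CDH5 at up to 1.41 CPM, and COL1A1 exceeded EPCAM in every library.

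Divided by annotated exon length, the genes covered a wide range in untreated cells, and the order partly followed that length. SNRPB, SNRPE, SNRPD2 and SNRPG have the shortest exon totals (1.278, 1.474, 1.608 and 1.795 kb), and the others have 2.544 to 5.637 kb. Before division SNRPB stood at 29.5 and 30.9 CPM and SNRPD1 (4.909 kb) at 14.5 and 14.6 CPM. How much of the range comes from the divisor was not tested. SNRPB was highest at 23.6 ± 0.78 CPM per exon kb (SD, n = 2). Its exons share 256 of 1278 bases with AL049650.1 on the same strand, so its counts are uncertain. AL049650.1 itself had 0 counts in every library. SNRPE at 17.6 ± 2.5 and SNRPD2 at 17.2 ± 0.69 followed with overlapping libraries, and SNRPG stood at 15.5 ± 1.1. A lower range held LSM4 at 5.63 ± 1.3, COIL at 4.87 ± 0.62 and SNRPD3 at 3.94 ± 1.1 CPM per exon kb, where each neighbour in the order overlapped the next. SNRPD1 at 2.96 ± 0.006, GEMIN5 at 2.02 ± 0.08 and SNRPF at 1.16 ± 0.01 CPM per exon kb were lowest. In a regression over 14538 genes, log counts had a slope of 0.94 ± 0.02 (SE) on log exon length and of -0.37 ± 0.01 (SE) on log gene span. That is how counting within exons behaves, but the feature counted is not given in the sources used here. If exons were counted, polymerases in introns lie outside these values.

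**Figure D1:**
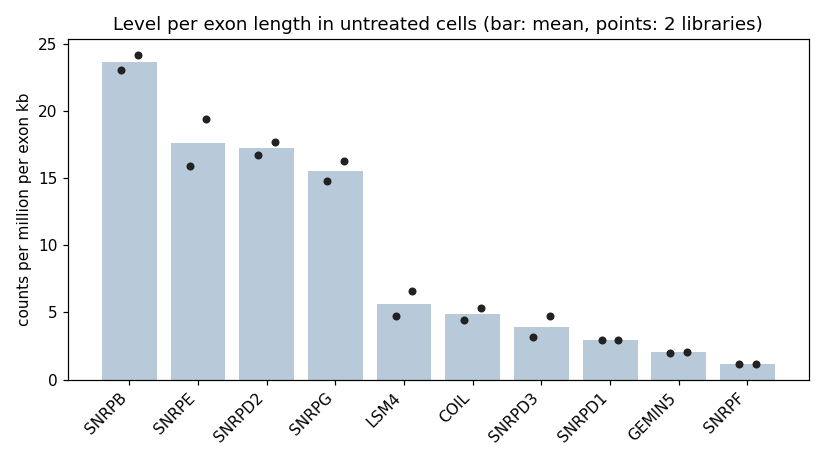
Level of the 10 genes in untreated A549 cells, in TMM-scaled CPM per exon kb; bars are means and points the 2 libraries. SNRPB, SNRPE, SNRPD2 and SNRPG, which have the shortest annotated exons (1.278 to 1.795 kb), stand at 15.5 or above. The other 6 genes stand at 5.63 or below.

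SNRPB, whose product SmB is the ring protein with the long arginine-glycine tail, was among the steadiest of the 10 genes. In untreated libraries it stood at 29.5 and 30.9 CPM. At 15 min it stood at 31.1 and 29.4 CPM with GSK591 and at 29.6 and 33.0 CPM with MS023. With Dex it stood at 27.4 and 30.6 CPM beside GSK591 and at 25 and 29 CPM beside MS023. After 3 h it stood at 28.3 and 28.4 CPM with GSK591 and at 33.0 and 34.1 CPM with MS023. Both inhibitors at 15 min and GSK591 with Dex overlapped the untreated libraries, while MS023 with Dex and GSK591 at 3 h lay below them and MS023 at 3 h above. Over all 14 libraries the highest value was 1.36 times the lowest. Against untreated cells the log2 fold changes of SNRPB lay between -0.16 and 0.15 in the 6 treatments, with 95% intervals that together ran from -0.40 to 0.38. Adjusted p-values of edgeR's quasi-likelihood test with Benjamini-Hochberg adjustment were 0.51 or above. In the comparison of GSK591 with MS023 at 3 h the SNRPB libraries did not overlap, with a log2 difference of -0.24 (95% interval -0.48 to -0.009; edgeR adjusted p = 0.81). The share of all genes without overlap between groups of 2 libraries was not computed. For this gene and the others, such gaps between groups are therefore descriptions, not results.

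SNRPD1, which encodes another tailed ring protein, fell at 3 h of GSK591. Its untreated libraries stood at 14.5 and 14.6 CPM. The libraries given GSK591 for 3 h stood at 7.91 and 7.56 CPM, below each of the other 12 libraries. This was a log2 fold change of -0.91 ± 0.24 (SE; 95% interval -1.39 to -0.43), with an adjusted p of 0.0083 by edgeR's quasi-likelihood test. After 3 h of MS023 the values were 9.38 and 14.4 CPM, which do not overlap the GSK591 libraries and lie below the untreated ones. The difference between the inhibitors at 3 h was -0.59 on the log2 scale and did not pass (edgeR adjusted p = 0.77). At 15 min SNRPD1 stood at 10.4 and 13.6 CPM with GSK591 and at 12.1 and 9.61 CPM with MS023, all below the untreated libraries. From 15 min to 3 h of GSK591 its log2 fold change was -0.63 (edgeR adjusted p = 0.13). The call at 3 h of GSK591 was lost when any of the 4 libraries was left out (edgeR adjusted p 0.055 to 0.071) and in DESeq2 (adjusted p = 0.17). The fold change itself stayed at -0.94 to -0.89 without a library and at -0.91 in DESeq2. SNRPD1 has no exon overlap with another gene in GENCODE 29 (GRCh38, chromosome 18, 21612267 to 21633524, plus strand).

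Dex with GSK591 gave SNRPD1 its widest spread. The libraries stood at 9.90 and 24.3 CPM, the latter the highest value of the gene in any library, and differed by 1.22 on the log2 scale. Against GSK591 alone the log2 difference was 0.50 ± 0.23 (SE; edgeR adjusted p = 0.25). It was 1.02 without replicate 1 of GSK591 with Dex and -0.26 without replicate 2, so that the sign rests on single libraries. These are the libraries with 48.2% and 58.0% mitochondrial counts, whose part in the spread was not tested. MS023 with Dex gave 12.4 and 13.8 CPM.

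SNRPD3, the third ring gene whose product is a PRMT5 substrate, was low and variable. Its untreated libraries stood at 12.0 and 7.99 CPM and its values in all 14 libraries ran from 6.65 to 12.4 CPM, both ends in GSK591 with Dex. Log2 fold changes against untreated cells lay between -0.25 and -0.01, with 95% intervals from -0.71 to 0.44 and edgeR adjusted p-values of 0.62 or above. Exons of SNRPD3 (chromosome 22, 24555503 to 24609980) share 306 bases with GGT1 on the same strand and 321 bases with GUCD1 on the opposite strand, so its counts are uncertain.

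**Figure D2:**
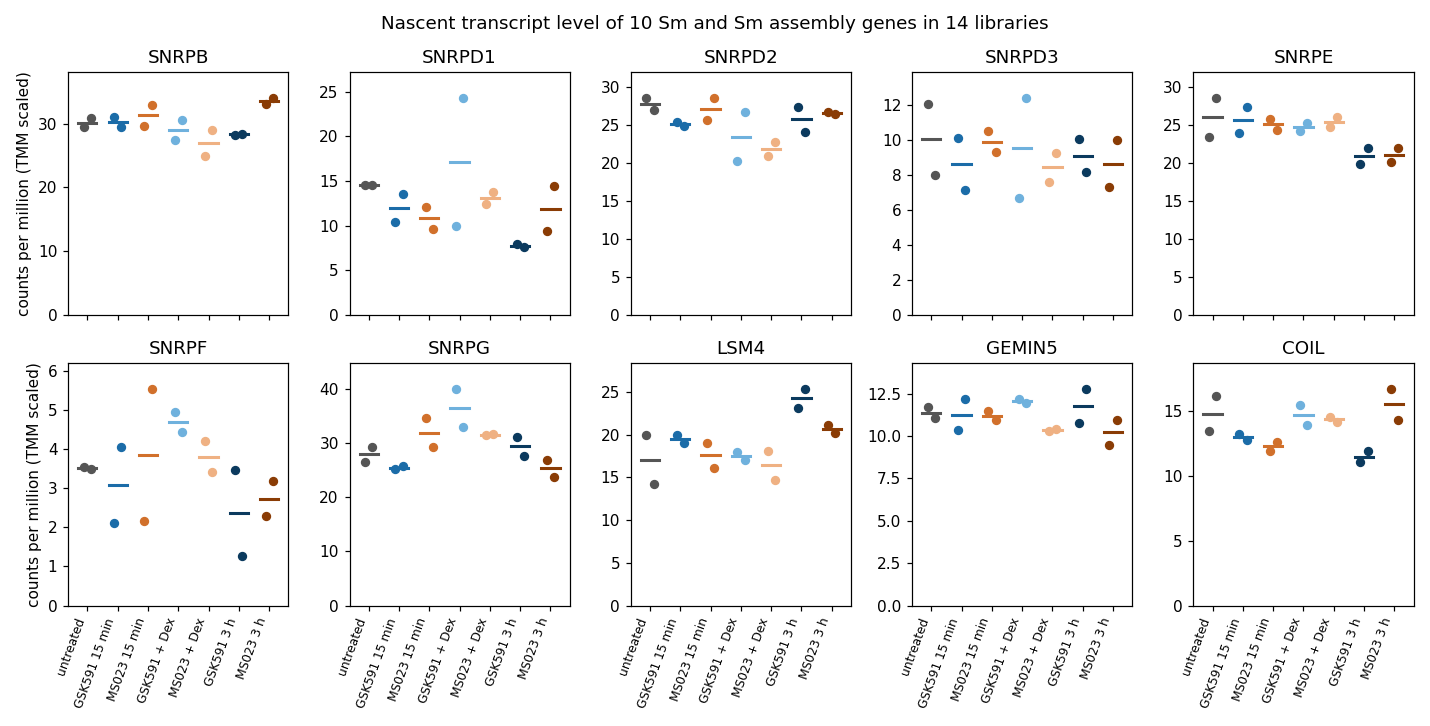
Level of each gene (TMM-scaled CPM) in the 14 libraries, by group; points are libraries and lines are group means, and each panel has its own axis from 0. SNRPD1 is lowest in the libraries given GSK591 for 3 h (7.91 and 7.56) and LSM4 is highest there (23.11 and 25.3). SNRPG has its highest group mean with GSK591 and Dex (40.0 and 32.9).

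Among the ring genes without a known PRMT5 site in their products, SNRPG was higher when Dex was added to GSK591. Its product SmG has no arginine-glycine tail. SNRPG stood at 25.2 and 25.8 CPM at 15 min of GSK591 and at 40.0 and 32.9 CPM when Dex was given with it, without overlap. The libraries of GSK591 with Dex are those that differed most from each other, with 48.2% and 58.0% mitochondrial counts. What part this had in the SNRPG values was not tested. The log2 fold change of Dex added to GSK591 was 0.52 ± 0.13 (SE; 95% interval 0.27 to 0.77), with an adjusted p of 0.011 by edgeR's quasi-likelihood test. With MS023 the values were 34.6 and 29.3 CPM without Dex and 31.4 and 31.7 CPM with it, which overlap. The difference between these Dex effects was 0.55 ± 0.18 (SE) and did not pass (edgeR adjusted p = 0.14). Against the untreated libraries at 26.6 and 29.2 CPM, GSK591 with Dex had a log2 fold change of 0.39 ± 0.12 (SE), just short of the threshold (edgeR adjusted p = 0.051). At 3 h SNRPG stood at 31.1 and 27.7 CPM with GSK591 and at 26.8 and 23.8 CPM with MS023. The Dex call was lost under scaling by library size alone, where the fold change was 0.32 and the median of all genes moved by -0.20 (edgeR adjusted p = 0.22). It was also lost without either library of GSK591 at 15 min (edgeR adjusted p = 0.11 and 0.081) and without replicate 1 of GSK591 with Dex, where the fold change was 0.37 (edgeR adjusted p = 0.16). The 20 annotated SNRPG pseudogenes had 176 counts over all libraries beside 3455 of SNRPG itself, and reads could be split between them.

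SNRPE, which encodes SmE, was lower in the 4 libraries taken at 3 h than in the other 10. It stood at 19.8 and 22.0 CPM with GSK591 and at 20.2 and 22.0 CPM with MS023, while the other 10 libraries ran from 23.4 to 28.6 CPM. Neither change against untreated cells passed: the log2 fold changes were -0.32 with GSK591 (edgeR adjusted p = 0.11) and -0.31 with MS023 (edgeR adjusted p = 0.16). By nuclear library size alone (totals without mitochondrial counts) the GSK591 change was -0.43 and passed (edgeR adjusted p = 0.030). Of the 10 genes, SNRPE and LSM4 separated the 3 h libraries in this way, 1 lower and 1 higher, against 8.79% of all tested genes (4.17% lower and 4.61% higher), a comparison chosen after seeing the values. The SNRPE libraries overlapped under scaling by library size alone or by nuclear library size. For LSM4 they overlapped by library size alone and stayed apart by nuclear library size.

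SNRPD2, which encodes the ring protein SmD2, stood at 28.5 and 26.9 CPM in untreated cells and at 20.9 and 22.7 CPM with MS023 and Dex. These libraries do not overlap, and the log2 fold change was -0.34 ± 0.13 (SE; edgeR adjusted p = 0.096). With GSK591 and Dex the gene stood at 20.2 and 26.6 CPM. The other 8 treated libraries ran from 24.1 to 28.5 CPM. Over the 6 comparisons with untreated cells the log2 fold changes of SNRPD2 lay between -0.34 and -0.04.

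SNRPF, which encodes SmF, was the gene with the fewest counts and the widest relative spread. It had 11 to 37 counts per library, and its level ran from 1.28 CPM in replicate 2 of GSK591 at 3 h to 5.55 CPM in replicate 2 of MS023 at 15 min. An exact Poisson interval, which covers counting error only, ran from 5.49 to 19.7 around 11 counts and from 26.1 to 51 around 37 counts. No change was detectable at this depth: the 95% intervals of the log2 fold changes against untreated cells ran together from -1.30 to 1.13. SNRPF exons share 114 bases with CCDC38 on the opposite strand, which had 264 to 439 counts per library, and the strand setting of the counting is not given in the sources used here. The 4 SNRPF pseudogenes had 93 counts over all libraries beside 392 of SNRPF.

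LSM4, whose product sits in the Sm-like ring that binds U6 snRNA and in the ring that promotes mRNA decapping, rose at 3 h of GSK591. Its untreated libraries stood at 19.9 and 14.2 CPM, and the libraries given GSK591 for 3 h stood at 23.11 and 25.3 CPM, the highest values of the gene in any library. The log2 fold change was 0.50 ± 0.14 (SE; 95% interval 0.21 to 0.79), with an adjusted p of 0.016 by edgeR's quasi-likelihood test. After 3 h of MS023 the values were 21.2 and 20.2 CPM, above both untreated libraries, with a log2 fold change of 0.28 that did not pass. At 15 min LSM4 stood at 19.9 and 19.0 CPM with GSK591 and at 19.0 and 16.1 CPM with MS023. With Dex it stood at 18 and 17 CPM beside GSK591 and at 18.1 and 14.7 CPM beside MS023. All of these libraries lie within or at the edge of the untreated range. Against 15 min of GSK591 the rise at 3 h was 0.32 and did not pass (edgeR adjusted p = 0.20). The 2 untreated libraries carried much of the result: the fold change was 0.77 without replicate 1 and 0.29 without replicate 2 (edgeR adjusted p = 0.41). The call was also lost without replicate 2 of GSK591 at 3 h (0.42, edgeR adjusted p = 0.17), by nuclear library size alone (0.39, edgeR adjusted p = 0.068) and in DESeq2 (0.51, adjusted p = 0.089). LSM4 (chromosome 19, 18306230 to 18323274, minus strand) has no exon overlap with another gene.

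GEMIN5 varied least of the 10 genes from library to library. It stood at 11.7 and 11.1 CPM in untreated cells and between 9.49 and 12.8 CPM elsewhere, a range of 1.35 times from lowest to highest. Log2 fold changes against untreated cells lay between -0.17 and 0.08, with 95% intervals from -0.51 to 0.43 and edgeR adjusted p-values of 0.65 or above. The libraries given MS023 with Dex (10.3 and 10.4 CPM) and MS023 for 3 h (9.49 and 10.9 CPM) lay below both untreated libraries, and those given GSK591 with Dex (12.2 and 11.9 CPM) above both, without passing the test.

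COIL did not pass the test between the inhibitors at 3 h, though its libraries did not overlap. It stood at 11.1 and 11.9 CPM after 3 h of GSK591 and at 16.7 and 14.3 CPM after 3 h of MS023, against 13.4 and 16.1 CPM in untreated cells. The GSK591 libraries lie below both other groups, with a log2 fold change of -0.37 against untreated cells (edgeR adjusted p = 0.13), which passed by nuclear library size alone at -0.48 (edgeR adjusted p = 0.039). Between the inhibitors the log2 difference was -0.44 ± 0.16 (SE; edgeR adjusted p = 0.63), and from 15 min to 3 h of MS023 the log2 fold change was 0.35 (edgeR adjusted p = 0.16). At 15 min COIL stood at 13.2 and 12.8 CPM with GSK591 and at 11.9 and 12.6 CPM with MS023. With Dex it stood at 15.4 and 13.9 CPM beside GSK591 and at 14.5 and 14.2 CPM beside MS023.

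Counted by comparison, few of the 10 genes were called (edgeR adjusted p under 0.05). At 15 min against untreated cells 0 of 10 were called with GSK591, against 0.306% of all tested genes, and 0 of 10 with MS023, against 0.183%. At 3 h of GSK591, LSM4 rose and SNRPD1 fell, 2 of 10 against 11% of all tested genes (7.25% higher and 3.79% lower). At 3 h of MS023 0 of 10 were called, against 7.63%. With Dex added against untreated cells 0 of 10 were called beside GSK591, against 5.85%, and 0 of 10 beside MS023, against 7.66%. Dex added to GSK591 called SNRPG, 1 of 10 against 3.7% (1.43% higher), and Dex added to MS023 called 0 of 10 against 8.97%. From 15 min to 3 h 0 of 10 were called with either inhibitor, against 6.41% with GSK591 and 12% with MS023. Over all 15 contrasts 3 of 10 genes were called at least once, against 26.2% of all tested genes. A test of any difference among the 7 groups called the same 3 genes, SNRPD1 (edgeR adjusted p = 0.012), SNRPG (0.0081) and LSM4 (0.024), against 25% of all tested genes.

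The inhibitors act on different enzymes, MS023 on those that make asymmetric dimethylarginine and GSK591 on the main maker of the symmetric form, and they were compared at 1 µM each. Between GSK591 and MS023 0 of 10 genes were called at 15 min, against 1.09% of all tested genes. At 3 h edgeR called 0 of 10 and 0% of all genes. Without adjustment 1319 genes and 3 of the 10 (SNRPB, SNRPD1 and COIL) had a p under 0.05, and DESeq2 called 1 gene. With Dex present edgeR again called 0 of 10 and 0% of all genes, with 1659 genes and 0 of the 10 at an unadjusted p under 0.05, and DESeq2 called 0. The 3 h minus 15 min changes differed between the inhibitors in 0 of 10 genes, against 0.561% of all tested genes, and the Dex effects in 0 of 10, against 1.15%. The comparisons with untreated cells share the 2 untreated libraries, so their values are not independent of each other.

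As a group, the 10 genes did not share 1 direction across treatments. The median log2 fold change against untreated cells was -0.14 at 15 min of GSK591, with 8 of 10 below 0, where the median of all tested genes was 0.02. It was -0.01 at 15 min of MS023, -0.12 at 3 h of GSK591 and -0.15 at 3 h of MS023, with 6, 7 and 7 of 10 below 0 and medians of all genes within 0.02 of 0. With Dex it was 0.01 beside GSK591 and -0.10 beside MS023, with 5 and 8 of 10 below 0. These medians moved with the scaling: by library size alone the median was 0.15 at 15 min of MS023 and 0.01 at 3 h of GSK591, and by nuclear library size -0.17 and -0.23, while the medians of all genes moved by 0.17 and 0.13 and by -0.16 and -0.11. Across the 14 libraries, pairs of the 10 genes correlated at Pearson's r from -0.77 (SNRPE with LSM4) to 0.70 (SNRPB with SNRPD2), with a median of 0.02 over 45 pairs. These correlations describe libraries that share groups and depth. The genes whose pattern was most like that of SNRPB over the 14 libraries, by r among 9976 genes, were NME6 (0.87), GATC (0.86), TRIM80P (0.81), MDH1 (0.80) and FOXRED2 (0.77). These are the highest of 9976 values, for a gene whose highest library was only 1.36 times its lowest. They were not tested and do not show shared regulation.

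**Figure D3:**
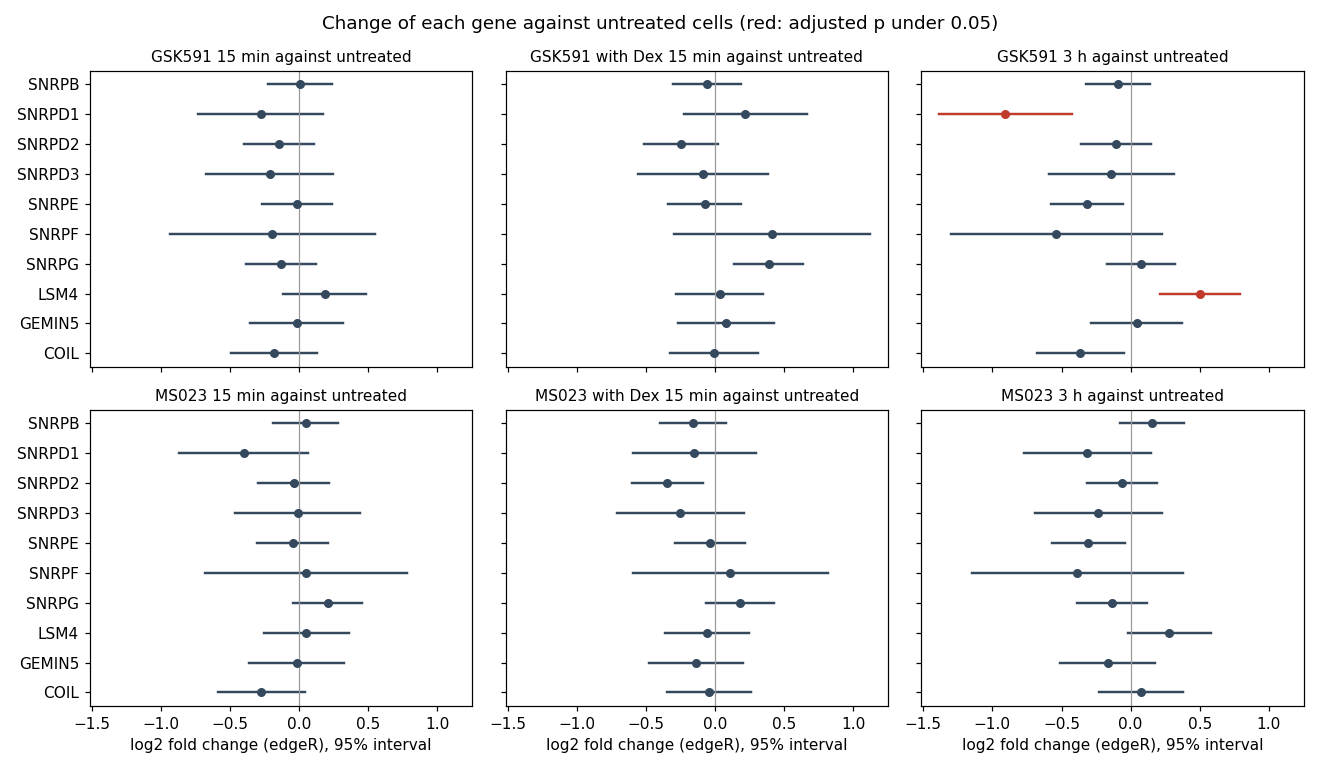
Log2 fold change of the 10 genes against untreated cells in the 6 treatments, from edgeR, with 95% intervals; red marks an adjusted p under 0.05. Only LSM4 (0.50) and SNRPD1 (-0.91), both at 3 h of GSK591, are red, and SNRPF has the widest intervals.

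The authors' deposited table of each comparison with the control holds 60 values for these genes. Only LSM4 (1 of the 60) had an adjusted p under 0.05 in the authors' deposited tables, at 3 h of GSK591, with a log2 fold change of 0.77 ± 0.25 (SE; adjusted p = 0.035), and 6 adjusted p-values were missing. For SNRPD1 in that comparison the authors' deposited table gives -0.91 ± 0.53 (SE; adjusted p = 0.38), the same fold change as edgeR with a larger error. The LSM4 value lies above the edgeR value of 0.50, and the reference group was examined for that reason, after seeing the data. The ratio of LSM4 after 3 h of GSK591, on counts divided by DESeq2 size factors, was 0.51 on the log2 scale against both untreated libraries, 0.29 against replicate 1 alone and 0.77 against replicate 2 alone. Over the 60 values of the 10 genes, the authors' deposited tables differed from the ratio to replicate 2 alone by at most 0.0282, and from the ratio to both untreated libraries by up to 0.33. Over well-counted genes the authors' deposited tables correlated with the ratio to replicate 2 alone at r of 0.999405 or above in each of the 6 comparisons. Against both untreated libraries r ran from 0.861 to 0.949, and against replicate 1 alone from 0.520 to 0.799. The untreated libraries of LSM4 (19.9 and 14.2 CPM) and SNRPD3 (12.0 and 7.99 CPM) stand apart, while those of SNRPD1 (14.5 and 14.6 CPM) are nearly equal. Why the values follow replicate 2 alone was not tested.

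**Figure D4:**
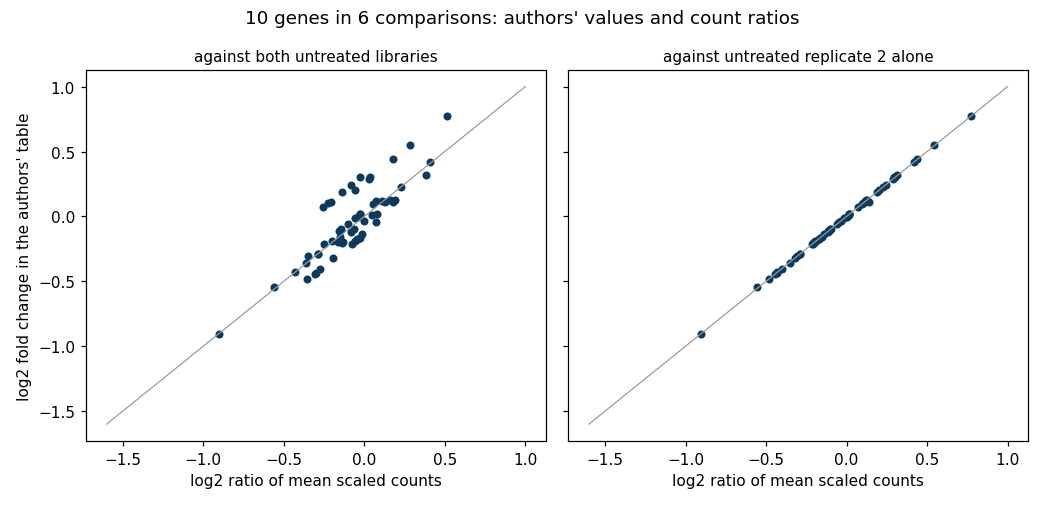
Log2 fold changes of the 10 genes in the authors' 6 deposited tables (vertical) against log2 ratios of mean scaled counts (horizontal), taken over both untreated libraries at left and over untreated replicate 2 alone at right; grey lines mark equality and each point is 1 gene in 1 comparison. Points lie on the line at right, within 0.0282, and depart from it by up to 0.33 at left.

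Other genes of snRNP assembly were read from 5 lists with 46 genes, all tested, which were drawn up with earlier results of these data known. At 15 min 0 of 46 were called with either inhibitor, against 0.306% of all tested genes with GSK591 and 0.183% with MS023. At 3 h of GSK591, 1 rose (COPRS) and 2 fell (PHAX and USPL1), against 7.25% higher and 3.79% lower among all tested genes. COPRS, a cofactor that directs PRMT5 to histones, stood at 11.2 and 13.9 CPM in untreated cells and at 39.8 and 38.8 CPM after 3 h of GSK591. It also rose at 3 h of MS023, at 34.2 and 47.0 CPM. The log2 fold changes of COPRS were 1.65 ± 0.17 (SE; edgeR adjusted p = 2.8e-09) with GSK591 and 1.68 ± 0.17 (SE; edgeR adjusted p = 2.3e-09) with MS023. PHAX, the adaptor that exports snRNA from the nucleus, stood at 11.8 and 11.5 CPM in untreated cells and at 7.07 and 7.21 CPM after 3 h of GSK591. Its log2 fold change was -0.71 ± 0.19 (SE; edgeR adjusted p = 0.012), a call lost in 6 of 11 alternatives (adjusted p up to 0.096), each single-library omission among them. USPL1, a SUMO protease of Cajal bodies, had a log2 fold change of -0.48 ± 0.16 (SE) at an edgeR adjusted p of 0.0496, lost in 8 of 11 alternatives (adjusted p up to 0.32), the replicate block among them (0.0502). At 3 h of MS023, 2 of 46 rose, COPRS and LSM11, whose product belongs to the U7 snRNP that processes histone mRNA, against 7.63% of all tested genes called. The log2 fold change of LSM11 was 0.59, a call lost in 7 of 11 alternatives (adjusted p up to 0.22). Against untreated cells, the other genes of the 5 lists did not pass at 3 h. From 15 min to 3 h of GSK591, 2 of 46 rose and 1 fell, against 6.41% of all tested genes called. LSM5 rose by 0.49 (edgeR adjusted p = 0.013) and COPRS by 1.08 (edgeR adjusted p = 2.4e-05). PHAX had a log2 fold change of -0.70 (edgeR adjusted p = 0.022). These calls were lost in 4 of 11 alternatives for LSM5, 4 of 10 for PHAX and 0 of 11 for COPRS.

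By list, 5 of 10 LSm and variant Sm genes, 2 of 9 SMN complex genes, 2 of 5 methylosome genes, 2 of 12 genes for snRNP-specific proteins and 3 of 10 genes for export, cap, import and Cajal bodies were called in at least 1 of the 15 contrasts. These 14 of 46 genes compare with 26.2% of all tested genes. With Dex against untreated cells, 0 of 46 rose and 2 fell beside GSK591, against 5.85% of all tested genes called. Beside MS023, 1 rose and 2 fell, against 7.66%. Dex added to GSK591 called 1 higher and 1 lower, against 3.7%. Dex added to MS023 called 2 higher and 2 lower, against 8.97%. With Dex, GEMIN6 of the SMN complex fell by 1.07 on the log2 scale beside MS023 against untreated cells (edgeR adjusted p = 0.00060), and LSM5 fell by 0.50 there (edgeR adjusted p = 0.0088). GEMIN7, the binding partner of GEMIN6, fell by 0.66 beside GSK591 with Dex (edgeR adjusted p = 0.0066), as did SF3A1 of the U2 snRNP by 0.49 (edgeR adjusted p = 0.037). Of 11 alternatives, these calls were lost in 1 for GEMIN6, 2 for GEMIN7, and 5 each for LSM5 (-0.34 at its smallest, edgeR adjusted p = 0.28) and SF3A1 (-0.29, edgeR adjusted p = 0.44). Rises with Dex were COPRS beside MS023 against untreated cells (0.99, edgeR adjusted p = 0.00018), USPL1 when Dex was added to GSK591 (0.67, edgeR adjusted p = 0.015) and COPRS (1.02, edgeR adjusted p = 0.00016) and LSM6 (0.47, edgeR adjusted p = 0.041) when it was added to MS023. The USPL1 call was lost in 5 of 11 alternatives. The COPRS calls were lost in 0 of 11 against untreated cells and in 1 of 11 when Dex was added to MS023. SF3A1 fell when Dex was added to GSK591 (-0.50, edgeR adjusted p = 0.049). GEMIN6 (-0.86, edgeR adjusted p = 0.0083) and LSM5 (-0.41, edgeR adjusted p = 0.040) fell when Dex was added to MS023. Of 11 alternatives, these falls lost their call in 7 for SF3A1, 2 for GEMIN6 and 7 for LSM5. From 15 min to 3 h of MS023, 4 of 46 rose (COPRS, GEMIN6, LSM10 and LSM11) and 4 fell (PRMT5, LSM1, SNRNP70 and WRAP53), against 7.65% and 4.4% of all tested genes. PRMT5 itself fell by 0.63 in that comparison (edgeR adjusted p = 0.0069). Of 11 alternatives, the calls in that comparison were lost in 9 for WRAP53, 8 for SNRNP70, 8 for LSM11, 5 for GEMIN6, 4 for LSM1, 3 for PRMT5 and 0 for COPRS.

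**Figure D5:**
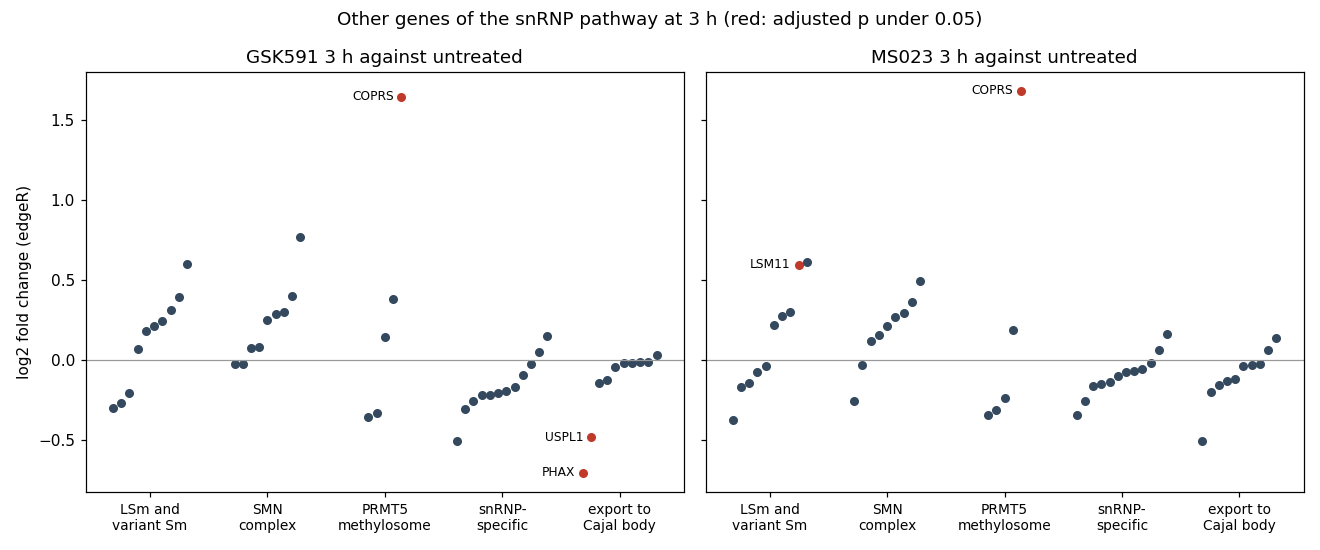
Log2 fold changes (edgeR) at 3 h of GSK591 (left) and MS023 (right) against untreated cells for the 46 other genes of snRNP assembly, in 5 lists; each point is 1 gene, sorted within its list, and red marks an adjusted p under 0.05. COPRS stands alone at 1.65 and 1.68, and PHAX is lowest with GSK591 at -0.71.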

How the data were processed

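The deposited count table holds whole-number counts per gene in 14 libraries, made by the authors with featureCounts 2.0.1 (Subread) on hg38 per the submitters' processing notes. The aligner, strand setting and handling of duplicates are not given in the sources used here. In addition, 6 deposited tables hold the authors' DESeq2 comparisons. Per the file headers they give log2 fold changes and errors, p-values with adjusted p-values, a test score and a mean signal.

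Counts were tested as deposited with edgeR 4.0.16 (R 4.3.3) by its quasi-likelihood test, with TMM scaling and edgeR's expression filter (minimum count 10). All 14 libraries entered 1 fit with a coefficient per group, 7 residual degrees of freedom, 15 contrasts and a test of any difference among groups. Benjamini-Hochberg adjustment ran over all 21910 genes tested, and genes with an adjusted p under 0.05 were called. The code was tested on simulated data. Coordinates, exon lengths and overlaps came from GENCODE 29 and promoter windows from RefSeq. Genes most like SNRPB were ranked by r on log2(CPM + 1) among genes whose mean reached 10 CPM. The text gives all 10 genes, and other assembly genes where called, up to 3 per list, with LSM6 and LSM10 added to complete counts after their values were seen. The genes and lists were chosen with earlier results of these data known. Alternatives were other scalings, no count filter, DESeq2 1.42.0, a replicate block, only the groups compared and leaving out each library.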

Additional observations from a re-analysis of the deposited data

Results flagged for a closer look

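COPRS, the PRMT5 cofactor, was called for a difference in Dex effect beside the 2 inhibitors. It stood at 21.5 and 15.5 CPM with GSK591 at 15 min and at 19.0 and 13.2 CPM when Dex was added, and at 10.3 and 14.9 CPM with MS023 and at 21.4 and 28.4 CPM when Dex was added to that. The Dex effect beside GSK591 minus that beside MS023 was -1.22 ± 0.27 (SE) on the log2 scale, which passed the interaction test (edgeR adjusted p = 0.011). That call was lost in 4 of 15 alternatives, each of them leaving out a single library. COPRS was the 1 gene of the 46 called there, against 1.15% of all tested genes. Between the inhibitors at 15 min COPRS was not called, either without Dex or with it. Libraries of the GSK591 group and of its Dex group overlap, and those of MS023 do not overlap with those of MS023 and Dex. Leaving out single libraries moved the difference between -1.52 and -0.95, and the edgeR adjusted p reached 0.29.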

How the results depend on the processing

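Of the 331 recomputed fold changes of the 10 genes (29 results), 295 kept their direction and side of the threshold, 13 lost a call, 11 gained one and 12 changed sign. Most of the 29 results were not calls, and all 13 losses fell on the called ones. At 3 h of GSK591 these were 5 of 11 alternatives for SNRPD1 and 4 of 11 for LSM4. For SNRPG under Dex added to GSK591 they were 4 of 11. SNRPB changed sign most, always near 0 and never called. At 15 min of GSK591 it was -0.00657 with DESeq2 size factors, -0.11 by nuclear library size alone, -0.0232 with no count filter, -0.00874 with only the groups compared and -0.00490 in DESeq2, and -0.03 without untreated replicate 1 and -0.0365 without replicate 1 of GSK591 (range without a library -0.0365 to 0.0473). It was -0.11 by nuclear library size and -0.0371 without replicate 2 at 15 min of MS023, 0.0147 without replicate 1 of GSK591 with Dex (range -0.13 to 0.0147), and 0.0405 by library size alone at 3 h of GSK591. SNRPD1 under Dex added to GSK591 was -0.26 without replicate 2 of the Dex group and 1.02 without replicate 1.

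Counts of called genes among the 10 moved by at most 3. At 3 h of GSK591, DESeq2 called 0 in place of 2 and leaving out a library left 0 to 1, while nuclear library size gave 3, losing LSM4 and gaining SNRPE and COIL. For any difference among groups DESeq2 called 0 in place of 3 and nuclear library size 4, with 1 to 3 without a library. Scaling by library size alone gave 0 in place of 1 for Dex added to GSK591 (0 to 1 without a library), 1 in place of 0 for Dex added to MS023 (SNRPD2) and 1 in place of 0 for MS023 from 15 min to 3 h (SNRPG), where nuclear library size gave 1 (COIL). For MS023 with Dex against untreated cells, nuclear library size and only the groups compared each gave 1 in place of 0 (SNRPD2), and only the groups compared gave 1 for GSK591 from 15 min to 3 h (SNRPD1). For GSK591 with Dex against untreated cells, the count was 0 to 1 without a library, and against MS023 with Dex also 0 to 1. Of the 10 genes, the number separating the 3 h libraries was 0 by library size alone and 1 by nuclear library size, in place of 2.

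Replicate numbers did not pair the libraries: same-numbered deviations correlated at -0.077 to 0.13 over 21 pairs of groups. With the replicate block, 1 of the 10 was called in place of 0 for GSK591 with Dex against untreated cells (SNRPG, 0.39, edgeR adjusted p = 0.044), and no other count of the 10 changed.

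Counts over all genes moved more, with ranges that include leaving out a library. Against untreated cells they ran from 4 to 187 around 67 (GSK591, 15 min), 2 to 196 around 40 (MS023, 15 min), 420 to 2045 around 1282 (GSK591 with Dex), 657 to 2620 around 1679 (MS023 with Dex), 1092 to 3422 around 2419 (GSK591, 3 h) and 834 to 1886 around 1672 (MS023, 3 h). They ran from 339 to 1472 around 811 and from 641 to 2202 around 1966 for Dex added to GSK591 and to MS023, and from 388 to 1496 around 1405 and from 1160 to 2862 around 2640 from 15 min to 3 h of each. Between the inhibitors they ran from 0 to 293 around 239 at 15 min, and around 0 up to 47 at 3 h and 78 with Dex. They ran from 8 to 490 around 252 for the difference of Dex effects, from 1 to 217 around 123 for the difference of time changes and from 3047 to 6345 around 5479 for any difference. Library size alone moved the median of all genes by -0.20 to 0.21 across contrasts. Of 289 recomputed fold changes of the other named genes (26 results), 184 kept their call and 105 lost it. COPRS at 3 h against untreated cells was called under each alternative run. LSM6 and LSM10 were not recomputed. Depth limited SNRPF most, at 11 to 37 counts. Causes of these moves were not tested.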
